A study of Mus musculus with 6 samples.

Results

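*Prdm1*, *Bcl6*, *Spi1*, *Cebpa*, *Cebpb*, *Mitf*, *Tfe3*, *Tfeb*, *Tfec* and *Maf* encode transcription factors that steer a myeloid precursor towards the macrophage or the osteoclast. They were taken as a set of 10 genes by symbol, out of 19938 genes that the arrays measured through a probe set paired with 1 symbol. Each gene was read through the probe set that the platform annotation pairs with its symbol alone, the brightest over all 6 arrays where there were several, which was the case only for *Mitf*. All 10 were measured.

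The cells were mouse bone marrow-derived macrophages (BMMs), grown from tibial marrow of 9-week-old mice with M-CSF, on which macrophages depend. For the next 24 h both groups were kept with M-CSF at 100 ng/ml and with RANKL, the cytokine that turns BMMs into osteoclasts, at 50 ng/ml. The RANKL group received vehicle and the RANKL + rGDF11 group received 100 ng/ml recombinant GDF11, a secreted protein of the TGF-β superfamily that signals through Smad2/3. There were 3 samples in each group, labelled as biological replicates, with 1 Affymetrix Mouse Gene 1.0 ST array per sample. The study used female C57BL mice. Whether the samples came from separate mice was not stated, and the spread behind each p-value, that among these 6 samples, may be technical. Levels are RMA values, a normalized probe set brightness on the log2 scale, and a difference of 1 is a doubling. The arrays had medians between 6.11 and 6.18 and no array stood apart, with correlations of 0.997 to 0.998 within groups and 0.989 to 0.991 between them across probe sets, which are not independent.

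Blimp1, the protein of *Prdm1*, and Bcl6 are zinc finger repressors that silence each other in several lineages. In osteoclast precursors RANKL is known to induce Blimp1, which represses inhibitors of osteoclast formation such as *Bcl6* and *Irf8*, while Bcl6 is known to repress *Nfatc1*, *Ctsk* and *Dcstamp*. PU.1, the protein of *Spi1*, and the C/EBP factors build the macrophage programme. MITF, TFE3, TFEB and TFEC form the MiT family of basic helix-loop-helix leucine zipper factors, which dimerise with one another. MITF and TFE3 act with PU.1 on osteoclast genes, and TFEB and TFE3 drive genes of lysosomes and autophagy. c-Maf, the protein of *Maf*, is a macrophage factor that drives *Il10*.

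After 24 h with rGDF11, *Prdm1* was 2.59-fold higher, *Maf* was 2.46-fold lower and *Tfec* was 1.46-fold lower than with RANKL alone. The other 7 members did not pass limma's test at an adjusted p under 0.05. The share of all tested probe sets that passed was 16.0% in either direction, 7.31% higher and 8.64% lower. It was 16.6% among genes read as the members were, and 27.2% among probe sets brighter than the median, where all 10 members lay. The 3 called of 10 were close to that last share. *Prdm1* and *Maf* also met the rule of the study's methods, a 1.5-fold difference and an unadjusted p under 0.01, which 5.03% of probe sets met. The groups did not overlap for 8 of the 10 members, against 32.9% of all tested probe sets. The median log2 fold change of the members was −0.011, against 0.024 over all tested probe sets.

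**Figure D1:**
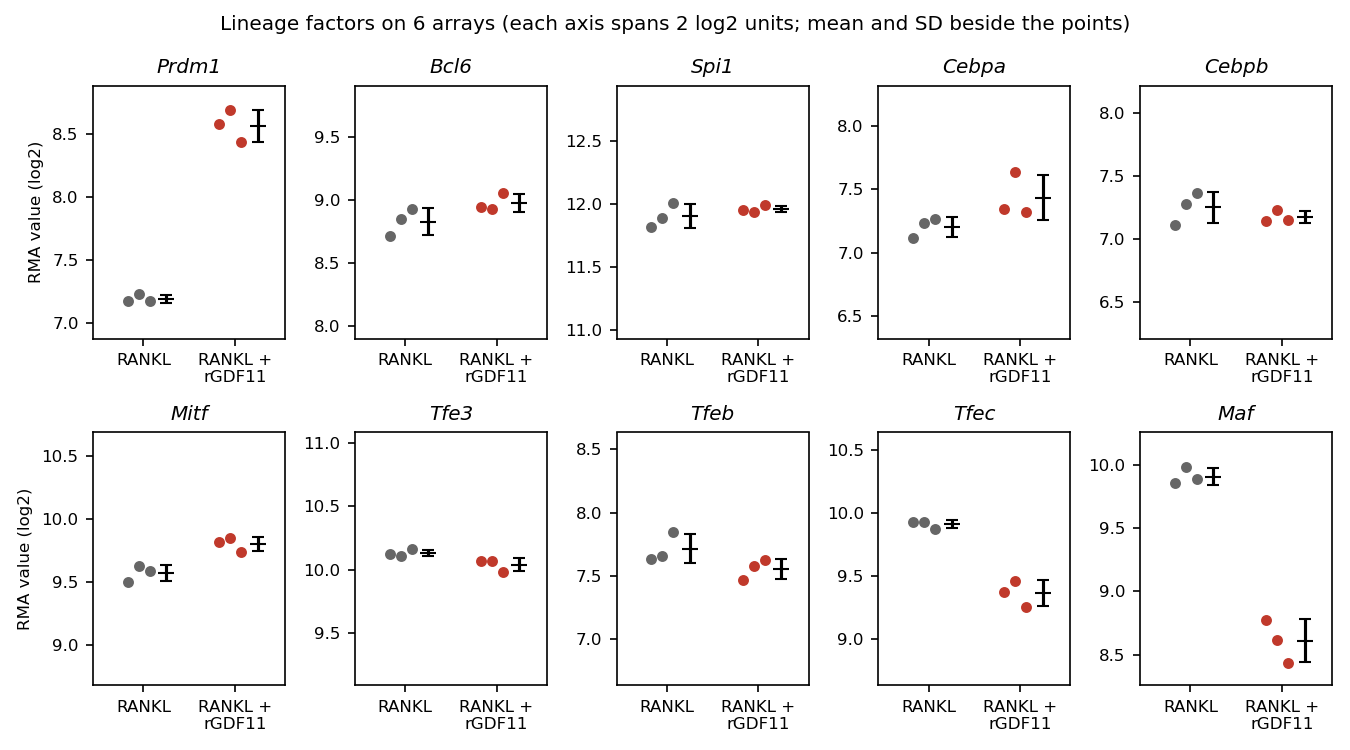
RMA values (log2, vertical axis, spanning 2 units in every panel) of the 10 lineage factors in BMMs given RANKL (grey) or RANKL + rGDF11 (red) for 24 h. Each point is 1 array, with the mean and SD of 3 arrays drawn at its right; the groups lie furthest apart for *Prdm1* and *Maf*, and overlap for *Spi1* and *Cebpb*.

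The promoters of the repressor pair and of the MiT member that fell are shown because these genes carry the comparison: *Prdm1* rose, *Bcl6* did not pass the test and *Tfec* fell. The RefSeq promoter table (GRCm38.p6) held 14 start sites of 8 members, and *Spi1* and *Maf* are not in it. The 250 bases before each start were searched on both strands for GAGGAAGT (PU.1), TGAGTCA (AP-1), CACGTG (E-box), TCATGTG (M-box), CAGACAG (Smad), TTCNNNGAA (Bcl6), TTGCGCAA (C/EBP) and the longer motifs of Blimp1 and Maf. Capitals below mark the matches, of which only *Bcl6* has any. *Prdm1* is at chr10:44458749-44458998, the downstream of 2 starts of *Bcl6* at chr16:23981284-23981533 and *Tfec* at chr6:16898442-16898691, all on the minus strand and written 5′ to 3′. The *Prdm1* gene spans chr10:44437174-44528558, so its only start among the 14 lies inside the gene, not at its upstream end.
Prdm1: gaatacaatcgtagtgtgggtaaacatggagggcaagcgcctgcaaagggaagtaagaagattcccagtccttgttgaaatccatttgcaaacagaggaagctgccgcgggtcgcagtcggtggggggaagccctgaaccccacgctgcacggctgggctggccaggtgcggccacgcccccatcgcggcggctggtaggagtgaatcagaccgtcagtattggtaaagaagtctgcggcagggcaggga
Bcl6: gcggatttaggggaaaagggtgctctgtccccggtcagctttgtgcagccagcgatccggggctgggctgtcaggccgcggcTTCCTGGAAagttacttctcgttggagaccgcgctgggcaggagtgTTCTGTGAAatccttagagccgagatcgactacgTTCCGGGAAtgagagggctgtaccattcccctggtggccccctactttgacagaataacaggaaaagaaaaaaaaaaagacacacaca
Tfec: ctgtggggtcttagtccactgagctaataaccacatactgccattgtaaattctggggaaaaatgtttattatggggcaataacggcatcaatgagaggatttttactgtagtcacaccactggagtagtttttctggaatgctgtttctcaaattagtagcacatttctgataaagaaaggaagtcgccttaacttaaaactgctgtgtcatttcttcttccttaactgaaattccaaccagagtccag
The *Bcl6* window held the Bcl6 letters at 3 places, TTCCTGGAA, TTCTGTGAA and TTCCGGGAA, which start 168, 122 and 88 bases before the start. The window of the other *Bcl6* start held 1 more, TTCTCAGAA, 118 bases before it, and an E-box. The printed window is thus the one of the pair with more Bcl6 matches. Of all 32851 windows of this length, 7.02% held the Bcl6 letters at 1 place or more and 6.02% the E-box. The Smad letters, present in 6.27% of windows, were found at 1 of 3 starts of *Mitf* and 1 of 3 starts of *Tfeb*. The AP-1 and PU.1 letters, in 4.46% and 2.44% of all windows, were not found in any of the 14. These are matches of letters in a short window, and binding was not measured on the arrays.

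Of the repressor pair, *Prdm1* moved and *Bcl6* did not pass the test. *Prdm1* (probe set 10368970) read 7.18, 7.23 and 7.17 on the arrays with RANKL alone and 8.57, 8.68 and 8.43 on those with rGDF11. The lowest array with rGDF11 lay 1.20 above the highest without it, while the arrays of a group spanned 0.056 and 0.25. The level rose from 7.19 ± 0.03 to 8.56 ± 0.13 (SD, n = 3 arrays per group), a log2 fold change of 1.37 with a 95% interval of 1.19 to 1.55 (limma, adjusted p = 3.34e-05). Its two-sided p by an exact permutation test was 0.1, and no comparison of 3 arrays with 3 can give less.

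*Bcl6* (probe set 10438738) read 8.71, 8.85 and 8.93 with RANKL alone and 8.95, 8.93 and 9.06 with rGDF11. The groups were separated by only 0.0041, far less than the 0.21 spanned by the RANKL arrays. The log2 fold change was 0.15 (standard error 0.08; limma, adjusted p = 0.278; exact permutation test, two-sided p = 0.1). Its 95% interval, −0.03 to 0.33, runs from 1.02-fold lower to 1.25-fold higher. Without the first RANKL array the log2 fold change was 0.09. At 24 h this interval leaves out a larger fall of *Bcl6*. Within each array, *Prdm1* minus *Bcl6* lay between −1.76 and −1.54 with RANKL alone and between −0.63 and −0.25 with rGDF11. The 2 changes differed by 1.22 (standard error 0.13) on the log2 scale. By the exact permutation test of this difference the two-sided p was 0.1, and 0.114 after adjustment over the 8 pairs of members compared.

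Of the genes that Blimp1 is known to repress, 6 outside the member set were measured, of which 2 rose, 0 fell and 4 did not pass limma's test. Only *Irf8* and *Myc* read above the median probe set of 6.15, and *Ciita*, *Spib*, *Id3* and *Pax5*, at 5.69, 5.41, 5.03 and 4.95 with RANKL alone, had little room to show a fall. *Myc*, the growth-promoting factor, rose by 1.18 on the log2 scale (limma, adjusted p = 6.31e-05) and *Id3*, an inhibitor of helix-loop-helix factors, by 0.87 (adjusted p = 0.00664). *Irf8*, an interferon regulatory factor that restrains osteoclast formation, read 9.51 ± 0.13 with RANKL alone and 9.62 ± 0.09 with rGDF11, a difference of 0.12 (limma, adjusted p = 0.451). *Spib* (−0.19), *Pax5* (−0.01) and *Ciita* (0.03), all known from B cells or antigen presentation, did not pass either. The list is mostly drawn from B cells, and its median log2 fold change was 0.07, against 0.024 over all tested probe sets. Of all tested probe sets 7.31% rose and 8.64% fell.

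All 3 osteoclast genes that Bcl6 is known to repress rose. *Nfatc1*, the factor that directs osteoclast differentiation, had a log2 fold change of 1.33, the protease gene *Ctsk* of 0.92 and *Dcstamp*, needed for fusion of precursors, of 0.63 (limma, highest adjusted p = 0.00141). The study itself drew *Nfatc1* and *Ctsk* from these arrays, which makes their rise here no independent evidence. Apart from the arrays, the study reported quantitative RT-PCR of key osteoclast marker genes and a western blot of Nfatc1. Of 9 genes known as Bcl6 targets in B cells, 8 were measured, of which 4 rose, 3 fell and *Ccnd2* (−0.14) did not pass, with a median of 0.05. *Id2*, an inhibitor of helix-loop-helix factors (0.78), and the activation marker *Cd69* (0.76) had the largest rises, and the chemokine genes *Cxcl10* (−2.02) and *Ccl3* (−0.73) the largest falls. Of all tested probe sets 7.31% rose and 8.64% fell. Among those brighter than the median, where all measured genes of both lists lay, 27.2% passed in either direction.

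**Figure D2:**
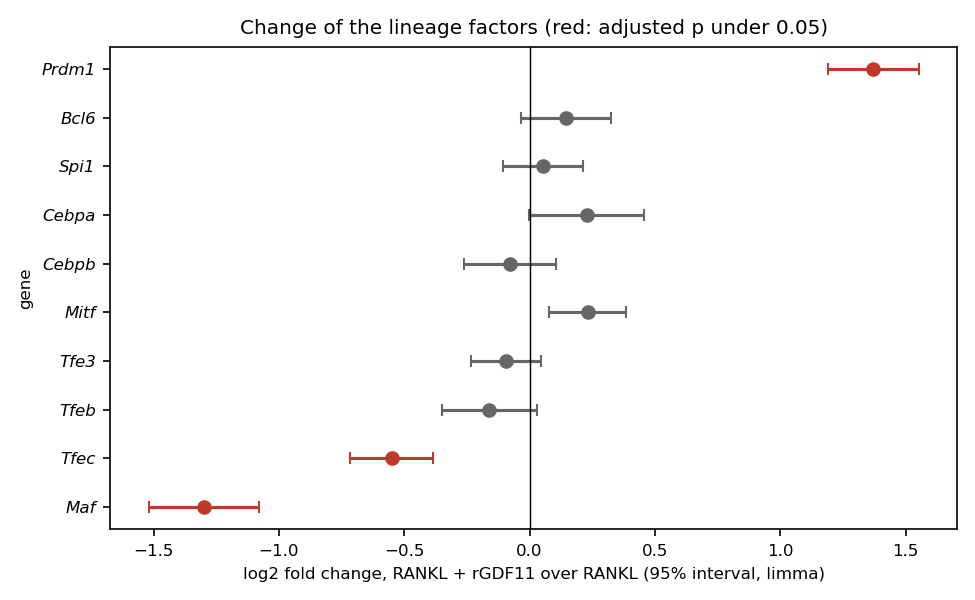
Horizontal axis, log2 fold change of RANKL + rGDF11 over RANKL alone, for the 10 lineage factors with 95% intervals from limma, over 3 arrays a group; those in red had an adjusted p under 0.05. *Prdm1* lies at 1.37, *Maf* at −1.30 and *Tfec* at −0.55, while the other 7 lie between −0.16 and 0.23.

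The myeloid factors PU.1 and C/EBP did not pass the test. *Spi1* (probe set 10473809) read 11.82, 11.89 and 12.01 with RANKL alone and 11.96, 11.94 and 11.99 with rGDF11. All 3 arrays with rGDF11 fell within the range of the RANKL arrays. The log2 fold change was 0.05 with a 95% interval of −0.11 to 0.21 (limma, adjusted p = 0.693; exact permutation test, two-sided p = 0.5), which allows at most a 1.16-fold rise or a 1.08-fold fall. It was 0.01 without the first RANKL array and 0.10 without the third.

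*Cebpa* (probe set 10552140), which encodes C/EBPα of early myeloid precursors, read 7.11, 7.23 and 7.27 with RANKL alone and 7.34, 7.64 and 7.32 with rGDF11. The second rGDF11 array stood above the others, and the groups were 0.05 apart. The log2 fold change was 0.23 (standard error 0.10; limma, adjusted p = 0.185), and it was 0.13 without that array. *Cebpb* (probe set 10478890), which encodes the inflammatory factor C/EBPβ, read 7.11, 7.28 and 7.36 and then 7.14, 7.23 and 7.15, a log2 fold change of −0.08 (standard error 0.08; limma, adjusted p = 0.606). The RANKL arrays of *Cebpb* enclosed all 3 arrays with rGDF11, and the difference was −0.14 without the first RANKL array and −0.02 without the third. The changes of the pair differed by 0.31 (standard error 0.08) on the log2 scale, with no overlap between groups (exact permutation test, two-sided p = 0.1, and 0.114 after adjustment over the 8 pairs).

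Macrophage genes known as PU.1 targets were lower or did not pass. Of 13, 8 fell, 0 rose and 5 did not pass limma's test, with a median log2 fold change of −0.28 against 0.024 over all tested probe sets. Of all tested probe sets 8.64% fell, and 27.2% of those brighter than the median passed in either direction. The Fc receptor *Fcgr1* (−1.41), the LPS co-receptor *Cd14* (−1.06), the LPS receptor *Tlr4* (−0.88) and the oxidase subunit *Cybb* (−0.51) had the largest falls. By the rule of the study's methods 3 of the 13 fell. *Csf1r*, the M-CSF receptor, differed by −0.08 (limma, adjusted p = 0.509). Of 11 genes known as C/EBP targets, 3 rose, 0 fell and 8 did not pass. These 3 were *Ptgs2* (0.83), which encodes the inducible prostaglandin synthase, *Il1b* (0.53) and *Arg1* (0.45). *Il1b* and *Arg1* read below the median probe set of 6.15, at 4.27 and 5.15 with RANKL alone. Dim genes of the list such as *Il6*, at 2.70 with RANKL alone, had little room to show a fall. The count of rises was 1 without the second or the third RANKL array, and 1 by the rule of the study's methods. Of all tested probe sets 7.31% rose.

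In the MiT family *Tfec* fell and the other 3 members did not pass the test. *Tfec* (probe set 10543239), a family member found mainly in macrophages, read 9.93, 9.93 and 9.88 with RANKL alone and 9.37, 9.46 and 9.26 with rGDF11. Every array with rGDF11 lay at least 0.42 below the RANKL arrays. The level fell from 9.91 ± 0.03 to 9.36 ± 0.10 (SD, n = 3), a log2 fold change of −0.55 with a 95% interval of −0.71 to −0.38 (limma, adjusted p = 0.00155; exact permutation test, two-sided p = 0.1).

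*Mitf* (probe set 10540248) read 9.50, 9.63 and 9.59 with RANKL alone and 9.82, 9.85 and 9.74 with rGDF11. The groups did not overlap and were 0.12 apart, but the log2 fold change of 0.23 (standard error 0.07, 95% interval 0.08 to 0.38) lay just outside the threshold (limma, adjusted p = 0.0516). It passed among probe sets above the median level alone (adjusted p = 0.0121), after a further quantile normalization (0.0157) and with a spread that follows the level (0.00603). The second probe set of *Mitf* (10540265), at 3.04 ± 0.28 and 2.93 ± 0.25, had a log2 fold change of −0.11. It reads so low that no change could be judged from it, and the table holds no detection calls. With the mean of both probe sets *Mitf* differed by 0.06 (limma, adjusted p = 0.782).

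*Tfe3* (probe set 10598409) read 10.13, 10.11 and 10.16 with RANKL alone and 10.07, 10.07 and 9.98 with rGDF11. The 2 groups were 0.04 apart, and the log2 fold change was −0.09 with a 95% interval of −0.23 to 0.05 (limma, adjusted p = 0.387). *Tfeb* (probe set 10445729) read 7.64, 7.66 and 7.85 and then 7.47, 7.57 and 7.62, a log2 fold change of −0.16 with a 95% interval of −0.35 to 0.03 (limma, adjusted p = 0.258). The groups of *Tfeb* were separated by only 0.014, and without the third RANKL array the log2 fold change was −0.09. For the 2 genes together the intervals allow falls of up to 1.18-fold for *Tfe3* and 1.27-fold for *Tfeb*.

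The changes of the family members were compared within arrays. *Mitf* minus *Tfec* lay between −0.43 and −0.29 with RANKL alone and between 0.39 and 0.49 with rGDF11, a difference of changes of 0.78 (standard error 0.05). *Mitf* differed from *Tfe3* by 0.33 and from *Tfeb* by 0.39, and *Tfec* lay further below its RANKL level than *Tfe3* did by 0.46 and than *Tfeb* did by 0.39. In these 5 pairs the groups did not overlap (exact permutation test, two-sided p = 0.1 each, and 0.114 after adjustment over the 8 pairs). *Tfe3* and *Tfeb* changed within 0.07 of each other (standard error 0.09; exact permutation test, two-sided p = 0.4). RMA levels of different probe sets have no common scale, so it is the shift of each difference and not its sign that is compared.

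Known targets of the MiT factors went both ways. Of 8 osteoclast genes driven by PU.1 with MITF or TFE3, 4 rose, 2 fell and 2 did not pass limma's test, with a median log2 fold change of 0.62. Of all tested probe sets 7.31% rose and 8.64% fell. Among those brighter than the median, where 7 of the 8 lay, 27.2% passed in either direction. *Acp5*, the tartrate-resistant acid phosphatase (1.87), *Atp6v0d2*, a proton pump subunit (1.58), *Nfatc1* and *Ctsk* rose. The study itself named *Acp5*, *Nfatc1* and *Ctsk* from these arrays, and their rises are no independent evidence. The chloride channel gene *Clcn7* (−0.51) and its partner *Ostm1* (−0.33) fell. Without the third RANKL array, the first rGDF11 array or the third rGDF11 array, the count of falls was 1. By the rule of the study's methods 4 of the 8 rose and 0 fell. *Oscar*, a costimulatory receptor (0.31), and *Tnfrsf11a*, the RANKL receptor (0.12), did not pass.

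Lysosome and autophagy genes of the CLEAR network, which TFEB and TFE3 drive, were lower or did not pass. Of 28, 25 were measured, of which 13 fell, 0 rose and 12 did not pass limma's test, with a median log2 fold change of −0.23. Of all tested probe sets 8.64% fell. Among those brighter than the median, where all 25 lay, 27.2% passed in either direction. The largest falls were those of *Gpnmb*, a glycoprotein of phagocytic cells (−0.83), the α-galactosidase gene *Gla* (−0.59), the autophagy receptor gene *Sqstm1* (−0.57) and *Wipi1* (−0.53), which acts in autophagosome formation. The count was 8 without the third RANKL array, the first rGDF11 array or the third rGDF11 array. By the rule of the study's methods it was 2.

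Of 16 genes that control where TFEB and TFE3 reside in the cell, 7 fell, 0 rose and 9 did not pass, with a median of −0.20. Of all tested probe sets 8.64% fell. Among those brighter than the median, where 15 of the 16 lay, 27.2% passed in either direction. The falls in the list included the Rag GTPases *Rragc* (−0.54), *Rragd* (−0.45) and *Rraga* (−0.42), which recruit mTOR to the lysosome, and folliculin, *Flcn* (−0.25). This count was 3 when any 1 array other than the second RANKL array was left out and 4 without that one, and 1 gene rose without the third RANKL array. By the rule of the study's methods it was 0.

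**Figure D3:**
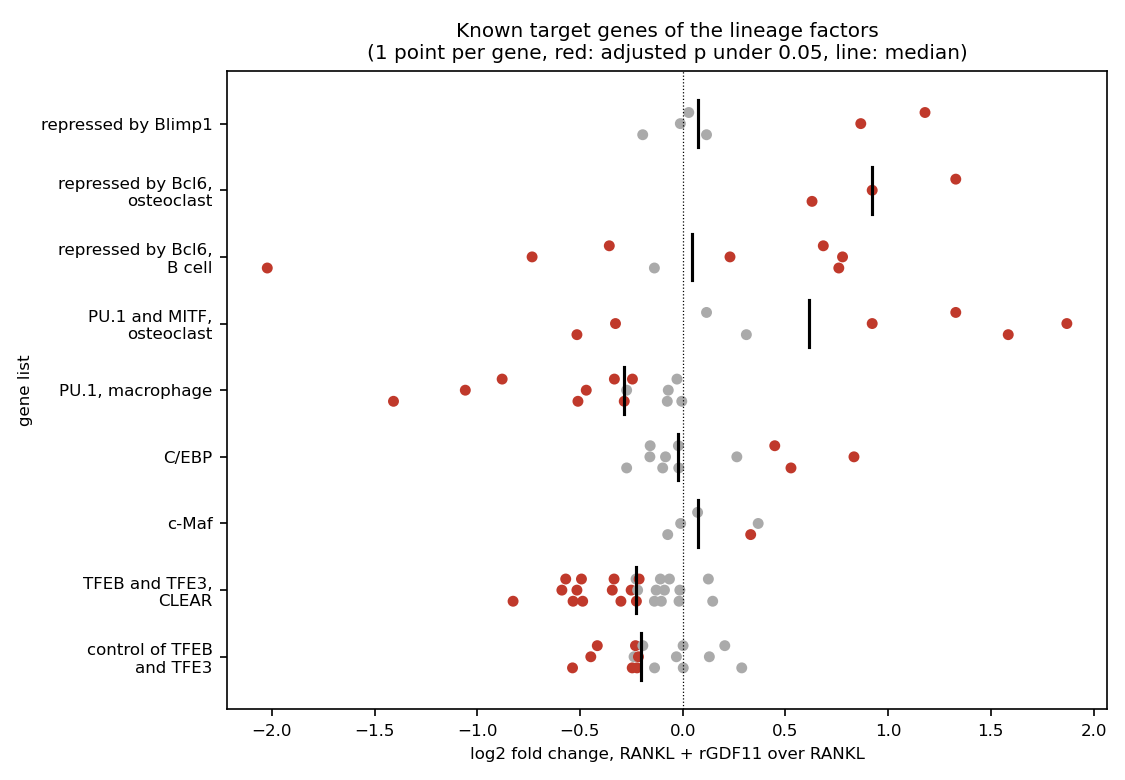
Horizontal axis, log2 fold change of RANKL + rGDF11 over RANKL alone, for the measured genes in 9 lists of known targets or controllers of the lineage factors, 1 point per gene; short vertical lines mark the medians and red marks an adjusted p under 0.05. The PU.1 macrophage targets have a median of −0.28 and the CLEAR genes of −0.23, while the PU.1 and MITF osteoclast targets spread from −0.51 to 1.87.

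*Maf* had the largest fall of the 10. Its probe set (10581992) read 9.86, 9.98 and 9.89 with RANKL alone and 8.78, 8.62 and 8.44 with rGDF11. The groups were 1.08 apart, and the arrays with rGDF11 spanned 0.34. The level fell from 9.91 ± 0.07 to 8.61 ± 0.17 (SD, n = 3), a log2 fold change of −1.30 with a 95% interval of −1.52 to −1.08 (limma, adjusted p = 9.09e-05; exact permutation test, two-sided p = 0.1). The arrays read RNA of the whole culture, in which fewer cells of a type and less RNA per cell cannot be told apart.

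Of the genes known as targets of c-Maf, the 3 complement genes were read at levels where a fall could show, and 0 of them fell. *C1qb* (−0.01) and *C1qc* (0.07) did not pass, and *C1qa* rose by 0.33 (limma, adjusted p = 0.0103). *Il10*, at 3.87 ± 0.16 with RANKL alone, reads too low for a fall to be judged and differed by −0.07 on the log2 scale (limma, adjusted p = 0.661), and *Il12b*, which c-Maf is known to restrain, by 0.37 (adjusted p = 0.164). By the rule of the study's methods 0 of the 5 were called.

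Relatives of the members by family mostly did not pass. Of 34, 31 were measured, of which 2 rose, 3 fell and 26 did not pass limma's test, shares of 6.45% and 9.68% against 7.31% and 8.64% of all tested probe sets. Of those that passed, the largest changes were those of the stress-induced C/EBP relative *Ddit3* (−0.68), the small Maf gene *Maff* (0.56), the Ets gene *Ets2* (−0.48) and *Zbtb16* (−0.40), a zinc finger gene of the Bcl6 type. The count of rises was 1 without the second RANKL array or the first rGDF11 array. By the rule of the study's methods 0 of the relatives rose and 1 fell. *Cebpd* (−0.34; limma, adjusted p = 0.0549) and the PU.1 relative *Spic* (−0.41; adjusted p = 0.0578) did not pass. No other Prdm gene that was measured passed, with log2 fold changes between −0.19 and 0.29. Of 13 other factors of myeloid lineage choice, *Id2* (0.78) and *Gata2* (0.44) rose and *Klf4* (−0.69) fell. *Irf4*, a partner of PU.1, differed by −0.0054 with arrays that spread widely (SD 0.38 with RANKL alone).

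The 3 genes whose profile over the 6 arrays was nearest to that of *Prdm1* were *Plau*, *Tgfbr1* and *Carmil1*, and those nearest to *Maf* were *St3gal5*, *Gas7* and *Pnp*. Likeness was the root mean square difference of values centred on each gene's own mean, over 19937 other genes. *Plau*, the urokinase gene, differed from *Prdm1* by 0.053 on the log2 scale, the TGF-β receptor gene *Tgfbr1* by 0.069 and *Carmil1* by 0.073. *St3gal5*, a ganglioside synthase gene, differed from *Maf* by 0.037, *Gas7* by 0.042 and the purine enzyme gene *Pnp* by 0.044. With 2 groups of 3 arrays the measure mainly ranks genes by the same size of change, and it is given as a description.

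Markers of other cell types and of the labelled one were read on the same arrays, as the mean level of each list on the log2 scale over the arrays of a group. All 8 macrophage markers read above the median probe set, 5 of them fell, and their mean level was 11.32 to 11.35 with RANKL alone and 10.84 to 10.92 with rGDF11. Of 8 osteoclast markers 5 rose and 1 fell, and their mean level went from 7.27 to 7.33 up to 7.97 to 8.10. *Acp5*, *Ctsk*, *Ocstamp*, *Dcstamp* and *Atp6v0d2* rose. *Mmp9* fell by 0.62 on the log2 scale (limma, adjusted p = 0.00376), and *Calcr* (0.10) and *Itgb3* (0.18) did not pass. Of all tested probe sets 7.31% rose and 8.64% fell. These lists share genes with the target lists above, so they are not separate results. *Cd68*, *Itgam*, *Fcgr1* and *Cd14* were also counted as PU.1 targets. *Acp5*, *Ctsk*, *Dcstamp* and *Atp6v0d2* were also counted as targets of Bcl6 or of PU.1 with MITF or TFE3. *Prdm1*, *Bcl6* and *Maf* are also known from B, T and plasma cells. Of 5 measured B cell markers *Cd79b* alone fell, with mean levels of the list of 4.69 to 4.76 and 4.46 to 4.60. Of 5 plasma cell markers *Sdc1* alone rose (5.60 to 5.63 and 5.68 to 5.87), and of 5 measured T cell markers *Cd4* alone fell (4.77 to 5.07 and 4.86 to 4.98). Of 6 measured stromal markers *Col1a1*, *Col1a2*, *Alpl* and *Pdgfrb* rose (5.98 to 6.14 and 6.47 to 6.53), and of 9 neutrophil markers *S100a8* and *Ngp* rose (6.21 to 6.24 and 6.45 to 6.53). Of 6 mast cell markers *Hdc* fell (4.46 to 4.52 and 4.40 to 4.49), of 6 dendritic cell markers *Flt3* rose (5.09 to 5.23 and 5.24 to 5.55), and of 2 measured erythroid markers 0 passed (4.95 to 5.08 and 4.93 to 5.34). The markers of other cell types are named because they were the ones that passed, once their values were known. The part of these cells in the changes of the lineage factors was not tested.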

How the data were processed

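The authors normalized the Affymetrix Mouse Gene 1.0 ST arrays by the robust multichip average and deposited log2 values, 1 per probe set and array. For expression levels the study names Affymetrix Expression Console, with no version, and Transcriptome Analysis Console 3.0. The values were used as deposited. Of 35556 rows, 23410 with a gene symbol were tested, 21789 of them with 1 symbol. The comparison used limma (version 3.58.1, R version 4.3.3; lmFit, then eBayes, two-sided) with Benjamini-Hochberg adjustment over the tested rows. Arrays have no depth, and 3 per group limit the precision. The members, the gene lists and the tests were chosen with earlier results of these data known. Named genes were all members, up to 4 called genes with the largest change per list, and some genes whatever their change. Lists of 8 or fewer, other than the cell type markers, were named in full. The fit was tested on simulated arrays of this comparison with 23410 rows: it called 48 of 50 set 2-fold apart, 30 of 50 at 1.5-fold and 26 of 50 at 1.4-fold. In the simulation 23210 rows had no change and spreads were shuffled among rows, while in the data 16.0% of tested probe sets passed. The adjusted threshold was therefore stricter in the simulation, and these counts do not estimate how many changes were missed here. Alternatives covered the rows tested, dim rows, 2 other ways of normalizing, how the spread is estimated, the t-test of the methods, the thresholds, a replicate block, each array left out and the probe sets of a gene.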

Additional observations from a re-analysis of the deposited data

How the results depend on the processing

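*Prdm1*, *Maf* and *Tfec* kept their direction and stayed under the threshold in all 15 alternatives each, with log2 fold changes of 1.31 to 1.44, −1.38 to −1.21 and −0.60 to −0.50. Of the other 7 members, 6 did not pass in any of the 15 alternatives, and *Mitf* passed in 3. The count of members higher was therefore 2 among rows above the median level, after a further quantile normalization and with an eBayes trend, and 1 otherwise. The count of members lower was 1 by the rule of the study's methods (1.5-fold, unadjusted p under 0.01), where *Tfec* is under the fold, and 2 otherwise. Leaving out each array in turn gave 1 higher and 2 lower every time. With the replicate number as a block, 1 member was higher and 2 were lower, with 1676 rows higher and 1943 lower against 1712 and 2023 without it. Same-numbered arrays deviated together with correlations of 0.064, 0.33 and −0.00083, and 3 of 6 arrays correlated best with their own number, so the numbers were not taken to pair the samples. Of 384 list counts under an alternative, 319 were within 1.5 times the value reported and 65 were not. With an eBayes trend 18 CLEAR genes and 9 genes that control TFEB and TFE3 fell, against 13 and 7. Over all tested rows 2269 were higher and 2638 lower with that trend.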

Other observations

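The corepressors and chromatin enzymes that Bcl6 or Blimp1 use were measured for 9 genes, of which 1 rose, 2 fell and 6 did not pass limma's test. Among probe sets brighter than the median, where all 9 lay, 27.2% passed in either direction, and the list was close to that share. Among probe sets above the median level alone, 3 were higher and 3 lower. *Prmt5*, an arginine methyltransferase recruited by Blimp1, rose by 0.43 on the log2 scale, from 9.98 ± 0.08 to 10.42 ± 0.01 (SD, n = 3; limma, adjusted p = 0.00319). *Hdac7*, a class II deacetylase, fell by 0.38 and the histone methyltransferase gene *Ehmt2* fell by 0.27 (limma, adjusted p = 0.0198 and 0.0334). The count of falls was 0 without the first or the third RANKL array or the first or the second rGDF11 array, and 1 without the third rGDF11 array. By the rule of the study's methods 0 rose and 0 fell. The other 6 measured genes differed by −0.21 to 0.28 and did not pass.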
